A study of Mus musculus with 10 samples.

Results

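The 10 genes described here encode parts of the neuronal cytoskeleton and of the synaptic vesicle machinery: Tubb3, Dcx, Map2, Nefl, Nefm, Stmn2, Syp, Snap25, Syt1 and Syn1. They were listed by function, and they are 10 of 21883 protein-coding genes placed on the mouse genome build GRCm38 by RefSeq. For each gene, all peaks touching the gene body or the 5 kb on either side of it were taken from 8 peak lists. The libraries came from neural stem and progenitor cells of the embryonic mouse forebrain at E13.5, kept at early passage in a medium with B27, N2, and epidermal and fibroblast growth factor at 20 ng/ml each. Treated cells received crotonate at 10 mM, a fatty acid of short chain and a source of crotonyl-CoA, for 24 h, and control cells received water for the same time. Both groups therefore stayed in the growth-factor medium that keeps such cells proliferating. Histone H3 carrying trimethylated lysine 4 (H3K4me3), crotonylated lysine 9 (H3K9cr), acetylated lysine 27 (H3K27ac) or trimethylated lysine 27 (H3K27me3) was immunoprecipitated from native, uncrosslinked chromatin. Each mark had 1 library in crotonate and 1 in control, so no difference below has a replicate error, a test or a p-value.

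Neuronal microtubules are built from tubulins such as the neuron-enriched beta-tubulin of Tubb3, and are bound by Map2 in dendrites and by doublecortin (Dcx) in migrating neurons. Neurofilaments (Nefl, Nefm) fill axons, and Stmn2 regulates microtubules in growth cones. At the synapse, vesicles carry synaptophysin (Syp), synapsin (Syn1) and the calcium sensor synaptotagmin (Syt1), and fuse through SNARE proteins including Snap25. In progenitors such genes are commonly silent or weakly expressed. H3K4me3 marks promoters, H3K27ac and H3K9cr mark active chromatin, and H3K27me3 is laid down by Polycomb repressive complex 2. Genes with H3K4me3 and H3K27me3 together are called bivalent, a term used here for overlapping peaks of separate libraries. Overlap of this kind leaves unknown whether 1 cell carried both, and in a bulk culture fewer cells carrying a mark and less of the mark per cell cannot be told apart.

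The lists held 17322 to 59868 peaks. Read depth is unknown, since the lists hold no library totals. The median fold enrichment, the pileup at a peak's summit over its local background, was 91.6 in crotonate and 102 in control for H3K4me3. It was 9.42 in crotonate and 14.7 in control for H3K9cr, 4.62 in crotonate and 5.59 in control for H3K27ac, and 4.03 in crotonate and 4.34 in control for H3K27me3. These peak values are the authors' own, so a lower enrichment at 1 gene is to be read beside the lower median of its list. The antibody vendor was labelled differently in the treatments, or in 1 treatment only, although catalogue numbers were equal, and its part in the results was not tested. Starts were taken as 1 kb on either side of an annotated start, or of both gene ends where no start was listed. All 10 marker genes of neural stem and progenitor cells had H3K4me3, H3K9cr and H3K27ac there in both treatments. H3K4me3 stood at the start of 6 of 7 oligodendrocyte-lineage markers, 2 of 6 astrocyte markers, 1 of 4 endothelial markers and 0 of 4 microglial markers in both treatments, and at 5 neuronal regulators in crotonate and 4 in control out of 5. The part of other cell types in the results below was not tested.

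All 10 genes carried H3K4me3 in their windows in both treatments, against 68.1% of all genes in crotonate and 66.8% in control. H3K9cr was present at 10 genes in crotonate and 9 in control, Stmn2 being the gene without it in control, and at 70.5% of all genes in crotonate and 69.3% in control. H3K27ac was present at 7 genes in crotonate and 9 in control, because Tubb3 and Nefl had it in control only, and at 68.5% of all genes in crotonate and 67.7% in control. H3K27me3 was present at 6 genes in crotonate and 8 in control, because Nefm and Snap25 had it in control only. Of all genes, 34.7% in crotonate and 33.8% in control carried it. Without peaks at the ends of other protein-coding genes the H3K27me3 counts were 5 in crotonate and 7 in control. That setting kept peaks that also touched a gene's own start, as at Tubb3, whose start lies close to the end of Mc1r. The windows of the 10 genes had a median of 66.2 kb against 27.2 kb for all genes, and a longer window has more room for a peak. Map2 and Syn1 had no H3K27me3 peak in either treatment, and Stmn2 no H3K27ac peak.

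**Figure D1:**
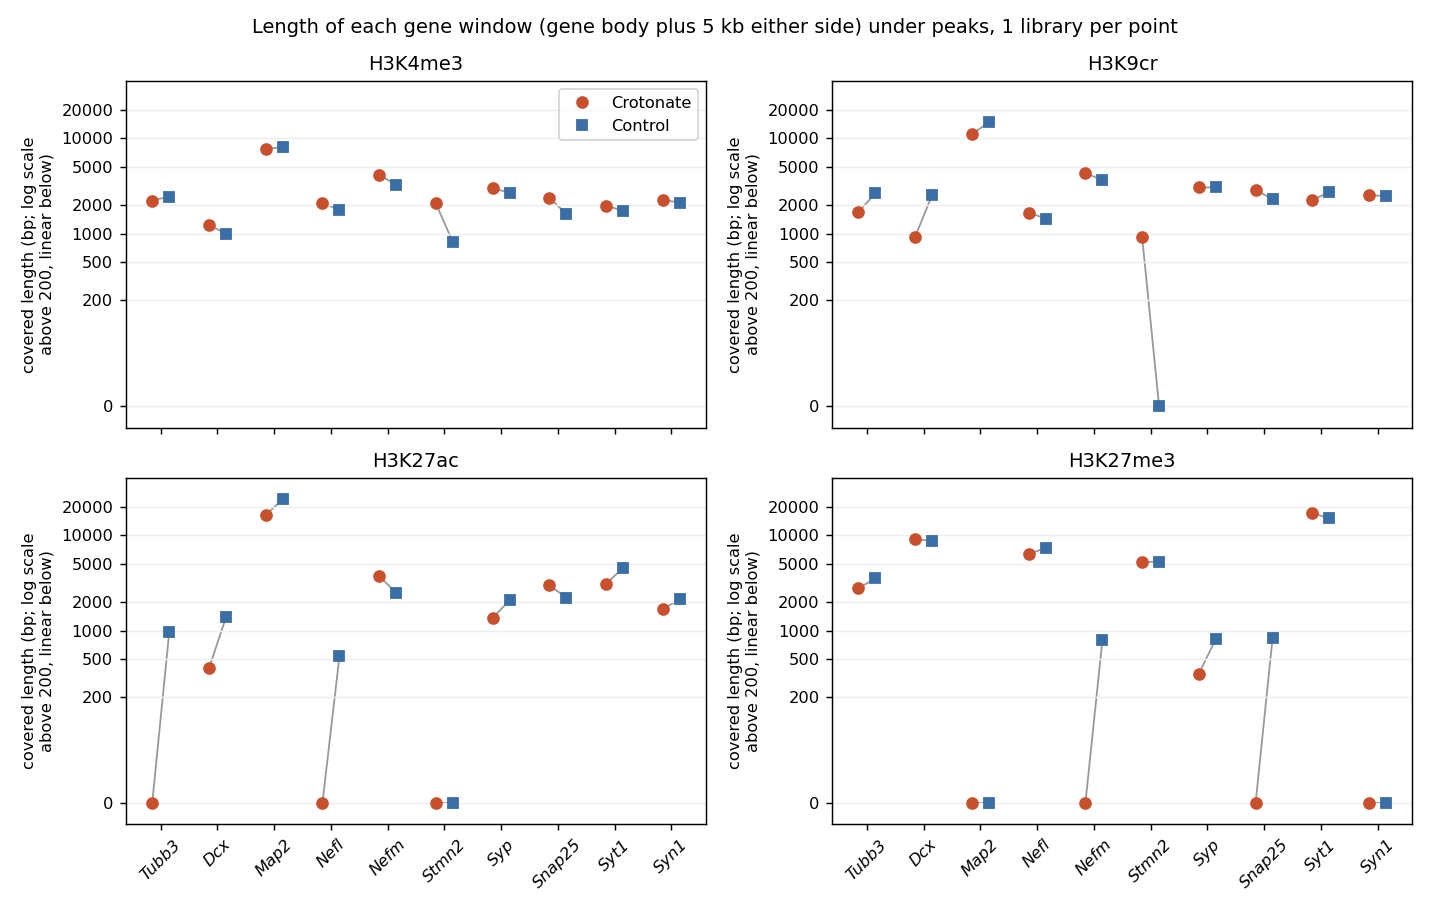
Length of each gene window under peaks (y axis, bp, log scale above 200 and linear below) for the 10 genes (x axis) and 4 marks, with crotonate as circles and control as squares, 1 library each. H3K27ac is at 0 bp in crotonate at Tubb3 and Nefl and H3K27me3 at Nefm and Snap25, while Stmn2 has H3K9cr in crotonate only.

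The length of each window covered by peaks was then compared, a ratio of 1.5 or more in either direction being counted as a difference and a mark found in 1 treatment only being counted too. For H3K27ac, 4 of the 9 genes with the mark had a shorter covered length in crotonate (Tubb3, Dcx, Nefl and Syp), against 13.8% of all genes with the mark, and 1 gene a longer one (Nefm), against 8.33%. For H3K27me3, 3 of 8 genes had a shorter length in crotonate (Nefm, Syp and Snap25), against 23.3%, and 0 of 8 a longer one, against 23.8%. A shorter H3K27me3 length in crotonate was also found at 3 of 7 neural stem and progenitor markers and 2 of 4 astrocyte markers that carried the mark. It was found at 1 of 4 oligodendrocyte-lineage markers, 0 of 4 neuronal regulators and 0 of 2 endothelial markers with the mark. A longer one was found at 1 of the 7 stem and progenitor markers and at 0 of the other markers. H3K9cr was shorter at 2 of 10 genes (Tubb3 and Dcx), against 4.14%, and longer at 1 (Stmn2), against 5.93%. H3K4me3 was longer at 1 of 10 genes (Stmn2), against 5.96%, and shorter at 0, against 0.602%. Just inside the limit for H3K27ac lay Syp, with a control length 1.52 times the crotonate one, and Nefm, with a crotonate length 1.53 times the control one. Just outside lay Syt1 and Map2, whose control lengths were 1.48 and 1.46 times the crotonate ones. With the stronger 50% of each list alone, 0 genes had a shorter H3K27ac length and 1 a shorter H3K27me3 length. With equal numbers of peaks these counts were 6, with Map2 and Syt1 added, and 3. The Syp call for H3K27ac was lost with the gene body alone and with peaks within 1 kb merged, and Syt1 was called shorter with that merging. Another alternative, added after the data were seen, left out peaks at the ends of other protein-coding genes. The shorter genes then numbered 5 for H3K27ac, with Syn1 added, and 2 for H3K27me3. Tubb3 stayed among the 5 because its start peaks, which also lie near the end of Mc1r, were kept. Among the 7 genes with H3K27ac in both treatments the median ratio of crotonate to control length was 0.684, against 0.894 over all 14434 such genes. The medians were 1.16 against 1.03 for H3K4me3 (10 genes), 0.999 against 1.01 for H3K9cr (9 genes), and 0.926 against 1.00 for H3K27me3 (6 genes).

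Peaks without any overlap with the other treatment's list, called lost where they stood in control only and gained where they stood in crotonate only, gave a similar picture for H3K27ac. At least 1 lost H3K27ac peak lay at 8 of the 9 genes, Nefm being the exception, against 32.6% of all genes with the mark. Gained H3K27ac peaks lay at 2 of 9 genes (Map2 and Syt1), against 42.7%. Lost H3K27me3 peaks were found at 4 of 8 genes, against 34.8%, and gained ones at 4 of 8, against 47.1%. Gained H3K9cr peaks were found at 3 of 10 genes, against 21.3%, and lost ones at 2 of 10, against 13.49%. A gained H3K4me3 peak lay at 1 of 10 genes (Snap25), against 6.66%, and a lost one at 0 of 10, against 1.98%. Windows of the 10 genes were long, 15.2 to 523 kb with a median of 66.2 kb against 27.2 kb for all genes, and a longer window has more peaks that can lack a partner. Counted over peaks, 12 of the 34 control H3K27ac peaks in these windows were lost (35.3%), against 25.3% of the whole list, and 3 of 27 crotonate peaks were gained (11.1%), against 30.1%. The lost H3K27ac peaks were weak, with 2.66-fold to 5.35-fold enrichment. With the stronger 50% of the control peaks set against the full crotonate list, 0 of the 10 genes had a lost H3K27ac peak.

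**Figure D2:**
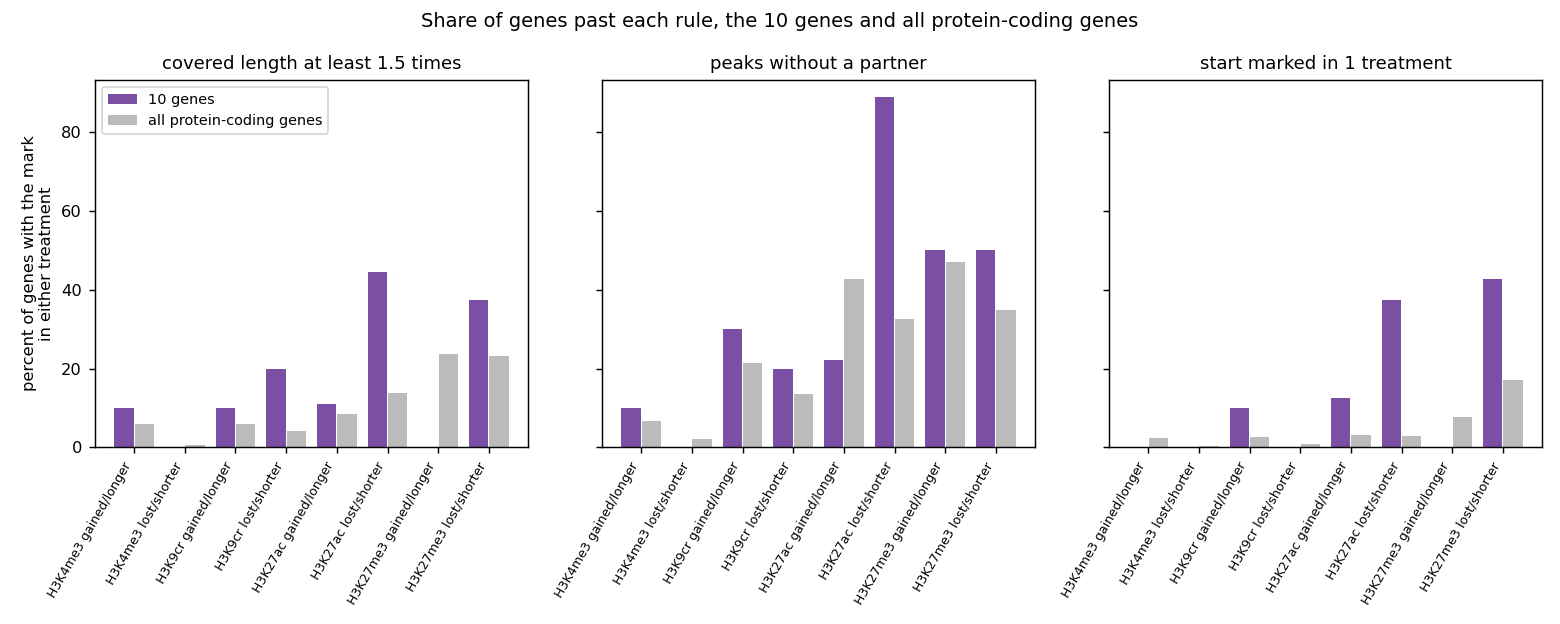
Percent of genes with a mark in either treatment (y axis) that pass each rule, for the 10 genes (left bar of each pair) and all protein-coding genes (right bar), by mark and direction (x axis), from 1 library per mark and treatment. Lost H3K27ac peaks stand at 8 of 9 of the genes against 32.6% of all genes.

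The start of each gene was examined in windows of 1 kb on either side of the annotated start. The starts came from a RefSeq promoter table with 6 of the 10 genes. For Nefl, Nefm, Stmn2 and Snap25, 1 kb on either side of both annotated gene ends was used in its place. The same was done for every other gene missing from that table, so the shares over all genes and other lists include such ends. H3K4me3 touched these windows at all 10 genes in both treatments, so starts marked in crotonate only or in control only numbered 0, against 2.35% (crotonate only) and 0.280% (control only) of all genes marked in either treatment. H3K27ac was at the start in control only for 3 of 8 genes (Tubb3, Nefl and Syp), against 2.88%, and in crotonate only for 1 of 8 (Syt1), against 3.07%. H3K27me3 was there in control only for 3 of 7 genes (Dcx, Nefm and Snap25), against 17.2%, and in crotonate only for 0 of 7, against 7.62%. H3K9cr was there in crotonate only for 1 of 10 genes (Stmn2), against 2.70%, and in control only for 0, against 0.733%. The H3K27ac and the H3K27me3 that were missing from starts in crotonate thus belonged to different genes of the set. The control H3K27me3 peaks had 2.98-fold (Dcx), 3.25-fold (Snap25, with 199 bp in the window) and 4.61-fold (Nefm) enrichment. Those of H3K27ac had 2.66-fold (Nefl), 4.86-fold (Tubb3) and 5.35-fold (Syp). The peaks at Dcx, Snap25 and Nefl stood above only 5.06%, 12.2% and 2.37% of their lists, so this contrast rests in part on weak peaks.

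The promoters of the 4 genes in that table whose starts differed in a mark between treatments are shown, with that of Syn1, added after its motif match was seen. Each line gives the 250 bases before the start, 5′ to 3′ on the gene's strand, from RefSeq (GRCm38.p6), and Dcx and Syt1 are shown for their outermost start. Capitals mark GGGCGG, a core of Sp1 sites, TATAAA of the TATA box, and TTCAGCACC, the left part of the element bound by REST, a repressor of neuronal genes outside neurons.
Tubb3: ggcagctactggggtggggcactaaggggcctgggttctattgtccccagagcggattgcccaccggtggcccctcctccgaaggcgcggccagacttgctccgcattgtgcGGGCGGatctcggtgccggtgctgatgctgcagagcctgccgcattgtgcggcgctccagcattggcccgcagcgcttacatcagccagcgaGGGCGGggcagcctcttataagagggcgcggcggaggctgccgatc
Syp: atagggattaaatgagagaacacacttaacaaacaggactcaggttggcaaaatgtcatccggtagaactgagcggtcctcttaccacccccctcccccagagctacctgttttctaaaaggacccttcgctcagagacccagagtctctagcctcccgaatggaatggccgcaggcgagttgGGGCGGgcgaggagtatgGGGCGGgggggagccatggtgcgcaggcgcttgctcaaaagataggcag
Syt1: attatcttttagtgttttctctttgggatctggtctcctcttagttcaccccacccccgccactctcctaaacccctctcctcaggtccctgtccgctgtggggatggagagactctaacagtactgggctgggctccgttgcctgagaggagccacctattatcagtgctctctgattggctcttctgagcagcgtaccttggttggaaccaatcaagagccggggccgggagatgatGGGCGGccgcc
Dcx: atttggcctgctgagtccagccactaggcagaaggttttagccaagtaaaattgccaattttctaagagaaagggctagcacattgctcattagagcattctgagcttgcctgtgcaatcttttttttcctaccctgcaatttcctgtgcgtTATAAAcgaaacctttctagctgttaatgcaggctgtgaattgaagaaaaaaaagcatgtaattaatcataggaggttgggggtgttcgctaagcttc
Syn1: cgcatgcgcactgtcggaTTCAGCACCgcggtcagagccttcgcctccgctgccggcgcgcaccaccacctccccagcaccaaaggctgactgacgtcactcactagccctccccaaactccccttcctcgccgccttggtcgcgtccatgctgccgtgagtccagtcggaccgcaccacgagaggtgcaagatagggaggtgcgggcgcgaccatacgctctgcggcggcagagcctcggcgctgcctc
The Tubb3 stretch is chr8:123411303-123411552 on the plus strand, and that of Syp is chrX:7638330-7638579 on the plus strand. The minus strand holds those of Syt1 at chr10:109010976-109011225, Dcx at chrX:143933220-143933469 and Syn1 at chrX:20920919-20921168.

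The promoters shown differ in base composition. The Tubb3 stretch has 68% G and C and 21 CpG dinucleotides, Syn1 68% and 27, Syp 56.4% and 11, Syt1 56.4% and 8, and Dcx 41.6% and 3, where the median of 32851 promoters in the table is 52.4% and 6. Motifs were searched on both strands of 300 bases, 250 before and 50 after each start. TTCAGCACC occurred in 0.371% of all promoters and, among the 6 genes, in Syn1, at positions -232 to -224 from the start. The right part of the REST element, searched as GGACAGCGC, occurred in 0.405% of all promoters and in none of the 6 genes. GGGCGG, in 35.7% of all promoters, was present at Map2, Syp, Syt1 and Tubb3, and TATAAA, in 13.6%, at Dcx. A match describes the letters only.

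Among the cytoskeletal genes, Tubb3 (chr8:123411553-123422015, plus strand) had all 4 marks over its start in control and 3 of them in crotonate. H3K27ac formed 1 control peak at chr8:123411127-123412088, which spans the start, with a pileup of 19 and 4.86-fold enrichment, and had 0 bp in crotonate. H3K9cr covered 1704 bp in crotonate and 2656 bp in control, with 10.9-fold enrichment in crotonate and 28.1-fold in control at the summit. The medians of the H3K9cr lists were 9.42 in crotonate and 14.7 in control. Within its list this H3K9cr peak stood above 52.4% of peaks in crotonate and 59.6% in control. H3K27me3 covered 2788 bp in crotonate and 3524 bp in control, with 8.18-fold enrichment in crotonate and 15.4-fold in control at the start. Relative to the start, the outer edge of that peak lay at -0.712 kb in crotonate and -1.901 kb in control. Its inner edge lay at 1.729 kb in crotonate and 1.622 kb in control, so within the gene body alone H3K27me3 was 107 bp longer in crotonate. H3K4me3 differed little, with 2234 bp and 43.6-fold enrichment in crotonate against 2456 bp and 50.1-fold in control. Tubb3 was bivalent in both treatments, with 2234 bp in crotonate and 2456 bp in control under both H3K4me3 and H3K27me3. Mc1r, the melanocortin 1 receptor gene, lies within the Tubb3 window and ends less than 1 kb before the Tubb3 start, so the peaks over that start cannot be told apart from marks of the Mc1r end.

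Nefl (chr14:68083863-68089095), the gene of the light neurofilament chain, had the strongest H3K27me3 peak of the set, and it reached less far into the gene in crotonate. The peak was chr14:68078761-68084421 in crotonate, with 65.4-fold enrichment and a pileup of 239, and chr14:68078361-68085496 in control, with 102-fold enrichment and a pileup of 376. It stood above 98.6% of the peaks of its list in crotonate and 98.1% in control. The non-coding gene Gm31107 ends under this peak. Past the lower annotated end of Nefl, the peak ran 0.558 kb into the gene in crotonate and 1.63 kb in control. H3K4me3 at the same end covered 2108 bp in crotonate and 1774 bp in control, with 60.1-fold enrichment in crotonate and 43.0-fold in control. The length under both H3K4me3 and H3K27me3 was therefore 1048 bp in crotonate and 1774 bp in control. H3K9cr covered 1671 bp in crotonate and 1443 bp in control, with 8.39-fold enrichment in crotonate and 12.8-fold in control. H3K27ac had 0 bp in crotonate and 536 bp in control, in a peak of only 2.66-fold enrichment that stood above 2.37% of its list. That H3K27ac difference thus rests on a peak close to the calling limit.

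Nefm (chr14:68119545-68125004), the medium chain gene, differed from Nefl in both marks of lysine 27. H3K27ac at its upper annotated end covered 3783 bp in crotonate and 2472 bp in control, with 11.1-fold enrichment in crotonate and 8.27-fold in control. H3K27me3 had 0 bp in crotonate and 792 bp in control, in 2 peaks of 4.61-fold and 2.98-fold enrichment. Both control H3K27me3 peaks overlapped H3K4me3, and 742 bp were bivalent in control and 0 bp in crotonate. H3K4me3 covered 4132 bp in crotonate and 3273 bp in control, and H3K9cr covered 4341 bp in crotonate and 3645 bp in control. The strongest H3K4me3 peak had 63.0-fold enrichment in crotonate and 63.9-fold in control, while that of H3K9cr had 22.4-fold in crotonate and 38.8-fold in control. Over the window of Nefm all 3 active marks were longer in crotonate, and H3K27me3 was listed in control only. Of these active marks only H3K27ac passed the 1.5 limit, the ratios being 1.26 for H3K4me3 and 1.19 for H3K9cr. Within 1 kb of the annotated ends H3K27ac covered 1552 bp in crotonate and 1589 bp in control, and its call as longer was lost there, with the gene body alone, at a limit of 2 times and with the stronger 50% of each list. The non-coding gene A230070E04Rik overlaps this end of Nefm, and its share in the peaks was not tested.

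**Figure D3:**
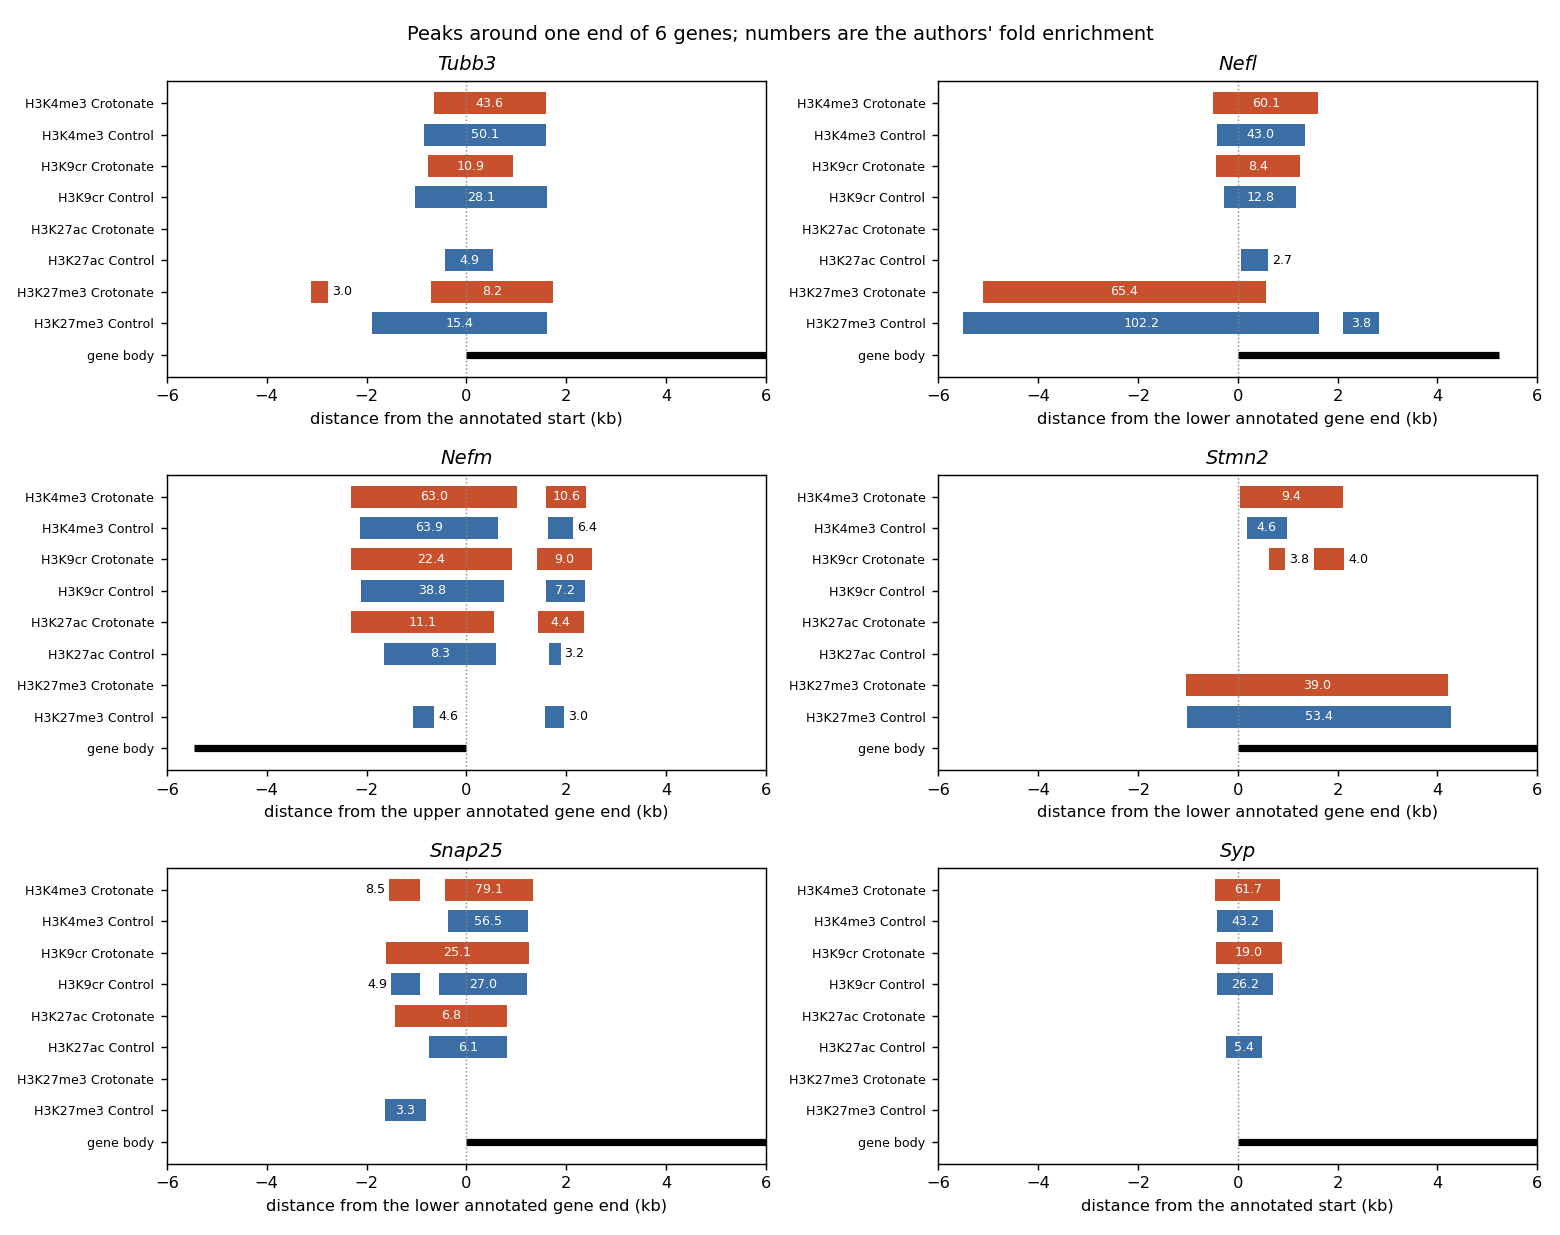
Peaks of each mark and treatment (rows, crotonate above control) within 6 kb of 1 annotated end of 6 genes (x axis, kb), with the authors' fold enrichment printed on or beside each peak and the gene body as a black bar. H3K27ac is absent in crotonate at Tubb3, Nefl and Syp, H3K27me3 is absent in crotonate at Nefm and Snap25, and Stmn2 has H3K9cr in crotonate only.

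Stmn2 (chr3:8509527-8561604) had a wide H3K27me3 peak over its lower annotated end in both treatments, and more of the promoter marks in crotonate. H3K27me3 covered 5245 bp in crotonate and 5286 bp in control, with 39.0-fold enrichment in crotonate and 53.4-fold in control. H3K4me3, lying wholly within that domain, covered 2079 bp in crotonate and 815 bp in control, with 9.40-fold enrichment in crotonate and 4.60-fold in control and a pileup of 52 in crotonate and 17 in control. The crotonate length was 2.55 times the control one over the window, but within 1 kb of the annotated ends it was 960 bp in crotonate and 815 bp in control, below the 1.5 limit. H3K9cr had 929 bp in crotonate, in 2 peaks of 3.78-fold and 4.04-fold enrichment, and 0 bp in control. These values are far below the medians of the H3K4me3 and H3K9cr lists, and H3K27ac was listed in neither treatment.

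Dcx (chrX:143855842-143933396, minus strand) had weak marks at its start and shorter H3K9cr and H3K27ac in crotonate. H3K4me3 at the start covered 1243 bp in crotonate and 1000 bp in control, with 8.52-fold enrichment in crotonate and 7.67-fold in control. H3K9cr over the window covered 930 bp in crotonate and 2554 bp in control. At the start alone it spanned 585 bp in crotonate and 1485 bp in control, with 4.99-fold enrichment in crotonate and 9.28-fold in control. H3K27ac, found only within the gene, covered 401 bp in crotonate and 1376 bp in control. These H3K27ac peaks lay 25.7 to 31.1 kb after the start, where H3K9cr peaks lay too, and 2 of the 3 control peaks were lost. The H3K27me3 length of the window was 9152 bp in crotonate and 8697 bp in control, but a control peak of 2.98-fold enrichment at the start had no partner. Most Dcx H3K27me3 lay 44.6 to 62.2 kb after the start in crotonate and 45.3 to 61.1 kb in control. Apart from these stood 1 peak at 33.5 kb in crotonate and 1 at 29.8 kb in control.

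Map2 (chr1:66175202-66442583, plus strand) had the strongest H3K4me3 of the set, no H3K27me3 and lower enrichment of H3K9cr and H3K27ac in crotonate. At its start H3K4me3 had 159-fold enrichment in crotonate and 162-fold in control, with a pileup of 615 in crotonate and 768 in control. H3K9cr at the same place had 31.9-fold enrichment and a pileup of 133 in crotonate, against 76.2-fold and 428 in control. H3K27ac there had 8.97-fold enrichment in crotonate and 21.6-fold in control. An internal site 144 to 149 kb after the start carried all 3 active marks and the strongest acylation of the gene. H3K9cr at this site had 36.4-fold enrichment in crotonate and 91.9-fold in control, and H3K27ac 16.7-fold in crotonate and 29.2-fold in control. The list medians were lower in crotonate too, at 9.42 against 14.7 for H3K9cr and 4.62 against 5.59 for H3K27ac. Within its list the H3K9cr peak stood above 70.7% of peaks in crotonate and 78.5% in control. The H3K27ac peak stood above 87.5% in crotonate and 92.8% in control. Over the whole window H3K9cr covered 11060 bp in crotonate and 14823 bp in control, and H3K27ac 16316 bp in crotonate and 23864 bp in control. Neither of these differences reached the 1.5 limit. H3K4me3 covered 7685 bp in crotonate and 8161 bp in control, so the active mark with the least difference was H3K4me3.

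**Figure D4:**
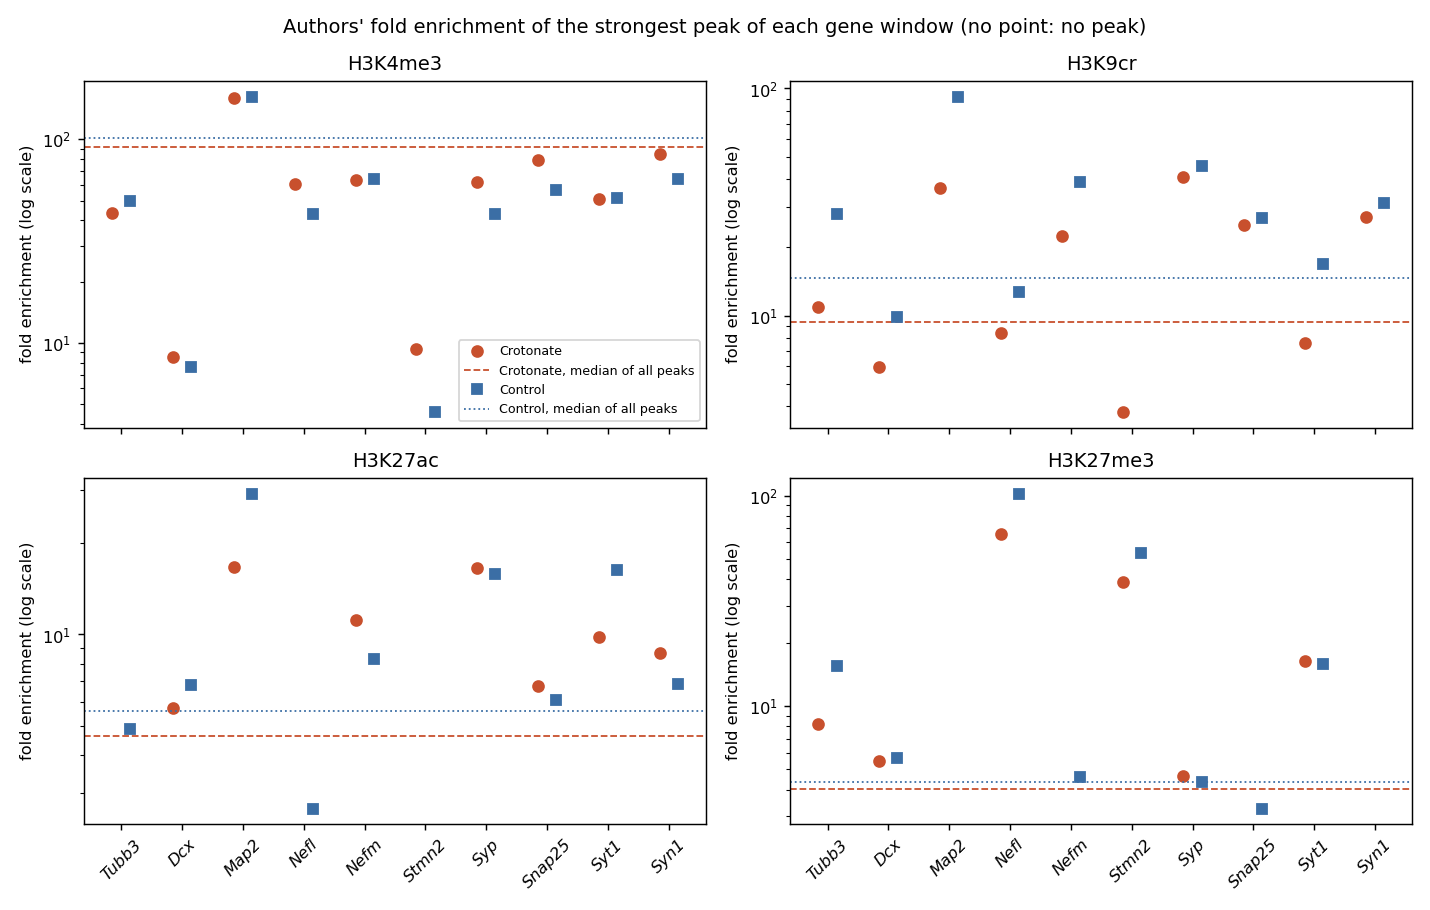
Authors' fold enrichment of the strongest peak, by -log10 q-value, in each gene window (y axis, log scale) for the 10 genes (x axis) and 4 marks, with crotonate as circles, control as squares, and lines for the median of all peaks of each list (dashed for crotonate, dotted for control). No point means no peak, and each point is 1 library. Map2 H3K9cr stands at 36.4 in crotonate and 91.9 in control, and Nefl H3K27me3 at 65.4 in crotonate and 102 in control.

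Of the synaptic genes, Syp (chrX:7638580-7653256, plus strand) had no H3K27ac at its start in crotonate and similar H3K27ac at an internal site in both treatments. The start peak, chrX:7638339-7639067 in control, had 5.35-fold enrichment and a pileup of 21, and the crotonate list had no peak there. The internal site, 9.66 to 11.4 kb after the start, had 2 H3K27ac peaks in each treatment, the stronger with 16.6-fold enrichment in crotonate and 15.8-fold in control. At the start H3K4me3 had 61.7-fold enrichment in crotonate and 43.2-fold in control, and H3K9cr 19.0-fold in crotonate and 26.2-fold in control. H3K4me3 covered 3003 bp of the window in crotonate and 2703 bp in control, and H3K9cr 3064 bp in crotonate and 3066 bp in control, so neither differed by 1.5 times. The only H3K27me3 peak of the window, 354 bp in crotonate and 818 bp in control, lay at the neighbouring gene Prickle3.

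Syn1 (chrX:20860511-20920918, minus strand) had H3K4me3 and H3K9cr of similar length in both treatments and less H3K27ac at its start in crotonate. H3K4me3 at the start had 84.7-fold enrichment in crotonate and 63.6-fold in control, and H3K9cr 27.1-fold in crotonate and 31.4-fold in control. H3K27ac had 531 bp within 1 kb of the start in crotonate and 858 bp in control. Its main start peak had 6.80-fold enrichment in crotonate and 6.81-fold in control, and a weak control peak of 3.41-fold before the start was lost. That weak peak, chrX:20921272-20921555, lies just upstream of the stretch printed above. The other peaks of the window, 50.1 to 51.4 kb after the start, lay at Timp1, a metalloproteinase inhibitor gene within Syn1, and cannot be told apart from marks of Timp1.

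Snap25 (chr2:136713439-136782428) had more H3K4me3 in crotonate upstream of its lower annotated end, at the site where the control list held H3K27me3. A gained H3K4me3 peak, chr2:136711895-136712513, had 8.52-fold enrichment and a pileup of 32 in crotonate. The control H3K27me3 peak, chr2:136711800-136712637, had 3.25-fold enrichment and spans that place, and crotonate had 0 bp of H3K27me3. The main H3K4me3 peak had 79.1-fold enrichment in crotonate and 56.5-fold in control, the total H3K4me3 length being 2380 bp in crotonate and 1618 bp in control. H3K9cr covered 2866 bp in crotonate and 2318 bp in control, and H3K27ac 2981 bp in crotonate and 2222 bp in control. The highest pileup was 138 in crotonate and 127 in control for H3K9cr, and 34 in crotonate and 24 in control for H3K27ac. As at Nefm, all 3 active marks at Snap25 had a longer covered length in crotonate and H3K27me3 was listed in control only. At Snap25 the crotonate to control ratios were 1.47 for H3K4me3, 1.24 for H3K9cr and 1.34 for H3K27ac, all below the 1.5 limit. With the gene body alone, these marks were longer by 94, 45 and 69 bp in that order. The control H3K27me3 peak stood above 12.2% of its list. How many of all genes share this combination was not counted. The non-coding gene Gm32659 overlaps this end of Snap25.

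Syt1 (chr10:108497650-109010980, minus strand), the longest of the genes, had a bivalent start in both treatments. H3K4me3 covered 1979 bp in crotonate and 1739 bp in control, with 51.1-fold enrichment in crotonate and 51.4-fold in control, all of it under H3K27me3. The H3K27me3 peak over the start had 16.4-fold enrichment in crotonate and 15.9-fold in control, and H3K27me3 of the whole window covered 17150 bp in crotonate and 15033 bp in control. Much of it lay in a second group of peaks, 24.7 to 40.3 kb after the start in crotonate and 25.0 to 37.9 kb in control. H3K9cr at the start had 7.61-fold enrichment in crotonate and 9.92-fold in control. H3K27ac at the start was 1 weak crotonate peak of 371 bp and 2.99-fold enrichment, absent from the control list. Further acylation lay within the gene, 429 to 430 kb after the start. There H3K27ac had 9.79-fold enrichment in crotonate and 16.3-fold in control, and H3K9cr 6.90-fold in crotonate and 16.9-fold in control. Near the printed promoter, Syt1 thus carried H3K4me3 and H3K27me3 with little difference.

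Considered together, H3K4me3 and H3K27me3 overlapped at 5 of the 10 genes in crotonate (Tubb3, Nefl, Stmn2, Syp and Syt1) and at 7 in control, where Dcx and Nefm were added, and at 17.5% of all genes in crotonate and 20.1% in control. The overlap in the Syp window lay at Prickle3 in both treatments. H3K27ac and H3K27me3 overlapped at 1 gene in crotonate (Syt1) and at 3 in control (Tubb3, Nefl and Nefm), and at 9.16% of all genes in crotonate and 15.1% in control, so the count was lower in crotonate over all genes too. H3K9cr overlapped H3K4me3 at 10 genes in crotonate and 9 in control, and at 67.4% of all genes in crotonate and 66.2% in control. At Tubb3 and Nefl it was H3K27ac that the crotonate list lacked, and at Nefm it was H3K27me3. The genes with the most H3K27me3 enrichment, Nefl and Stmn2, had it in both treatments.

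Of the 10 genes, 3 lie on the X chromosome (Dcx, Syp and Syn1). Among all X-linked genes with H3K27ac, 25.5% had a shorter covered length in crotonate, against 13.4% of autosomal genes, and for H3K27me3 the shares were 41.5% and 22.9%. The shorter H3K27ac at Dcx and Syp and the shorter H3K27me3 at Syp are to be read beside these X-linked shares.

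A wider list of 40 genes of the neuronal cytoskeleton and the synapse had more genes with a shorter H3K27me3 length in crotonate than with any other difference in covered length. Of its 29 genes with H3K27me3, 11 had a shorter length in crotonate (37.9%, against 23.3% of all genes with the mark) and 2 a longer one (6.90%, against 23.8%). Peaks without a partner were near the share over all genes in both directions. Gained H3K27me3 peaks lay at 14 of the 29 genes (48.3%, against 47.1%) and lost ones at 10 (34.5%, against 34.8%). The shorter ones included Cplx2, a regulator of vesicle fusion, with 5913 bp in crotonate and 10344 bp in control, and Dclk1, a relative of doublecortin, with 1274 bp in crotonate and 4663 bp in control. Map1b, a microtubule-associated protein gene, had 660 bp in crotonate and 2773 bp in control, and Elavl3, which encodes a neuronal RNA-binding protein, 1416 bp in crotonate and 3528 bp in control. The median ratio of crotonate to control length was 0.848 over 25 genes, against 1.00 over all genes. The longer ones included Rab3a, a vesicle-associated GTPase gene, with 144 bp in crotonate and 0 bp in control. In the start windows H3K27me3 was present at 16 of the 40 genes in crotonate and 21 in control, against 18.7% and 20.9% of all genes. It was in control only at 5 of the 21 genes marked in either treatment, against 17.2%. In crotonate only it was at 0, against 7.62%.

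In the wider list H3K27ac was shorter at 4 of 35 genes and longer at 1, shares of 11.4% and 2.86%, against 13.8% and 8.33% of all genes with the mark. By covered length the wider list was therefore not above the share over all genes in shorter H3K27ac. By peaks without a partner it was above that share in both directions. Lost H3K27ac peaks lay at 18 of the 35 genes (51.4%, against 32.6% of all genes with the mark). Gained ones lay at 18 too (51.4%, against 42.7%). Nlgn1, a synaptic adhesion gene, had 14370 bp of H3K27ac in crotonate and 23945 bp in control, and the tubulin gene Tubb2a 2915 bp in crotonate and 4673 bp in control. Ina, an internexin neurofilament gene, had 353 bp in crotonate and 819 bp in control, and Stmn4, a stathmin, 345 bp in crotonate and 584 bp in control. H3K27ac was longer at Syt4, with 333 bp in crotonate and 0 bp in control. H3K9cr was longer at 2 of 38 genes, against 5.93% of all genes with the mark, and shorter at 0, against 4.14%. Slc17a7, a vesicular glutamate transporter gene, had 2321 bp of H3K9cr in crotonate and 992 bp in control, and 2050 bp of H3K4me3 in crotonate and 818 bp in control. Prph, the peripherin gene, had 423 bp of H3K9cr in crotonate and 0 bp in control. Slc17a7 was the 1 gene of 39 with a longer H3K4me3 length (2.56%, against 5.96% of all genes with the mark). A shorter one was found at 0, against 0.602%. Starts with H3K27ac numbered 32 of 40 in both treatments, so the absence of H3K27ac from starts in crotonate, seen at 3 of the 10 genes, was not repeated in the wider list.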

How the data were processed

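Native chromatin immunoprecipitation libraries of 4 histone marks in crotonate and control, 8 in all, were used. The 2 input libraries were not analysed here. The submitters' processing notes name Bowtie2 2.4.1, MACS2 2.2.7.1 and the build GRCm38. How peaks were called, how duplicates were handled and whether input was subtracted is not stated in the labels. The deposited pileup is a coverage signal at the summit, and the deposited fold enrichment is its ratio to background, per the file headers. Each deposited -log10 p-value or -log10 q-value belongs to 1 peak, and the q-value only picked the strongest peak of a window.

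Gene positions came from the RefSeq table of GRCm38.p6, and starts and sequences from its promoter table. An overlap of 1 bp counted as shared. Covered lengths, peak numbers and overlaps were computed with Python 3.11.15, numpy 2.4.6 and pandas 2.3.3, and drawn with matplotlib 3.10.9. The interval functions were tested on simulated data. With 1 library per mark and treatment no test was made, and shares over all genes describe these libraries only. Genes of the wider list were named by the size of their difference in covered length, at most 4 per mark and direction. The values of 1 gene that this rule picks are not reported here. The members and lists were chosen with earlier results of these data known. Alternatives covered the window, the overlap rule, the fold, the number and strength of peaks, and the merging of peaks.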

Additional observations from a re-analysis of the deposited data

How the results depend on the processing

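With 1 library per mark and treatment, the calling of peaks decides each count, read depth is unknown, and a peak just under the calling limit counts as absent. No paired analysis was possible because each mark has 1 library in each treatment. Over the 10 genes, 115 recomputed counts stayed within 1.5 times the reported one and 29 did not; the cause was not tested. With the stronger 50% of each list, H3K4me3 was present at 2 genes in crotonate and 1 in control and H3K9cr at 6 in crotonate. H3K27ac was then longer in crotonate at 0 and shorter at 0, and H3K27me3 longer at 1 and shorter at 1. With the stronger 50% against the full other list, genes with a gained peak numbered 0 for H3K4me3, 0 for H3K9cr, 0 for H3K27ac and 2 for H3K27me3, and with a lost peak 0 for H3K9cr, 0 for H3K27ac and 1 for H3K27me3. With an overlap of 50% of both peaks required, gained peaks lay at 3 genes for H3K4me3, 5 for H3K9cr and 4 for H3K27ac, and lost ones at 1 for H3K4me3 and 5 for H3K9cr. With the gene body only, H3K27ac was longer at 0, and gained peaks lay at 0 for H3K4me3 and 2 for H3K27me3. In start windows H3K4me3 was longer at 0 and H3K9cr shorter at 1. With 2 times in place of 1.5 times, H3K9cr was shorter at 1 and H3K27ac longer at 0. With peaks within 1 kb merged, H3K4me3 was longer at 2, and with peaks within 1 kb counted as shared its gained peaks lay at 0. With equal numbers of peaks, gained H3K27ac lay at 0.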
